A study of Mus musculus with 20 samples.

Results

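The 10 genes that mark the stem cells at the base of intestinal crypts, Lgr5, Ascl2, Olfm4, Smoc2, Rgmb, Axin2, Rnf43, Znrf3, Tnfrsf19 and Msi1, were followed on 1-colour Agilent arrays of mouse intestinal tissue. Every probe that the scanner files name after 1 of these 10 genes was taken, which gave 26 of the 56605 non-control probes. The series held 20 arrays in 4 groups. The 6 Cre control mice (VillinCreER/0, wild-type Braf) and the 6 BRAFV600E mice (VillinCreER/0 with 1 inducible mutant Braf allele, Braf V600E-LSL/+) were 8 to 12 weeks old, received tamoxifen on 3 consecutive days at 2 mg a dose, and gave tissue 3 days after the last injection. The 4 MEKi mice received PD184352, an inhibitor of the kinase MEK, and the 4 Vehicle mice received its DMSO and Cremophor carrier, as 3 injections after 2 tamoxifen injections. Which Braf genotype the MEKi and Vehicle mice had is not in their labels, and the figure legends of the study place them on the mutant Braf allele. All mice were of C57BL6/j background according to the methods. The Villin promoter limits Cre to the gut epithelium, whereas the arrays measured whole tissue with its muscle, stroma, nerves and immune cells, so that in these bulk samples fewer cells of a type and less RNA per cell cannot be told apart.

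Crypt base columnar stem cells divide at the bottom of the crypt, between Paneth cells, and are kept by Wnt signals that stabilise β-catenin. R-spondins bind Lgr5 and its relatives and thereby hold back Rnf43 and Znrf3, membrane ubiquitin ligases that remove Frizzled receptors from the surface. Axin2 is a scaffold of the complex that degrades β-catenin and is itself a Wnt target, and Ascl2 is a basic helix-loop-helix transcription factor of these stem cells. Tnfrsf19 (Troy) is a receptor of the TNF receptor family, Rgmb a co-receptor for bone morphogenetic proteins, Olfm4 and Smoc2 are secreted glycoproteins, and Msi1 is an RNA-binding protein.

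Because Ascl2, Axin2 and Tnfrsf19 were lower in BRAFV600E by the probe with the highest signal, the 250 bases before their RefSeq start sites are shown (GRCm38.p6, each 5′ to 3′ on the strand of the gene). The 6 letters of the TCF/LEF core, CTTTGA or CTTTGT on either strand, stand in capitals. The motifs differ only in their last letter.
Ascl2 (chr7:142969265-142969514, minus strand): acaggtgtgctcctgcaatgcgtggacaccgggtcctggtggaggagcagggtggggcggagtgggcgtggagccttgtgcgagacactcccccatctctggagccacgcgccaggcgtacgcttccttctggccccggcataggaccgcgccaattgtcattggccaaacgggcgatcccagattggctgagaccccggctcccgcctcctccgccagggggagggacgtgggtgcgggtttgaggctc
Axin2 (chr11:108920099-108920348, plus strand): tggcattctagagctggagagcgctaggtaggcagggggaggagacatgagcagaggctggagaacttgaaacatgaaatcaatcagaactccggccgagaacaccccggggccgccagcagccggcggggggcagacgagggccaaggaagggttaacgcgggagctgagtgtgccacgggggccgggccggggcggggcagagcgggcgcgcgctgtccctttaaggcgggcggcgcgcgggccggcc
Tnfrsf19, promoter 1 (chr14:61046856-61047105, minus strand): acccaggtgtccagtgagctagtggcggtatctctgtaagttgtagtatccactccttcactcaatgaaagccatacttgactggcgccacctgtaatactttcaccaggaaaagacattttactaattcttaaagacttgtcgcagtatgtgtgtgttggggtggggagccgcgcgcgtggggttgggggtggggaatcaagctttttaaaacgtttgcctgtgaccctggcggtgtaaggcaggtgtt
Tnfrsf19, promoter 2 (chr14:61037988-61038237, minus strand): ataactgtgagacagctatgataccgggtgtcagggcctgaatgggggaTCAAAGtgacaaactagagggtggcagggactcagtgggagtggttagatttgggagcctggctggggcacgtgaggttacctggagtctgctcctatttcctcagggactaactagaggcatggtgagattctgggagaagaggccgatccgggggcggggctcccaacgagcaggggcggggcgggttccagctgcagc
The core was found in Tnfrsf19 promoter 2 alone among these 4, as TCAAAG on the gene strand, beginning 201 bases before the start site. RefSeq promoters were matched for 6 of the 10 genes (10 promoters), and 2 of the 10 held the core, the other being a promoter of Rgmb. Of all 32851 promoters in the table, 27.6% held it in a window of the same length. A match is a run of letters and no measured site, and its absence describes only these windows.

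In BRAFV600E against Cre control, 23 of the 26 probes were bright enough to test and 8 were called, all of them lower in BRAFV600E. They belonged to 6 genes: Ascl2, Axin2, Lgr5, Rgmb, Tnfrsf19 and Znrf3. Levels are log2 processed signal minus the 75th percentile of the same array, calls rest on limma p-values under 0.05 after Benjamini-Hochberg adjustment over all tested probes, and probe 1 of a gene is the one with the highest mean over the 20 arrays. Over all 38501 probes tested in that comparison, 9.33% were called, 4.21% lower and 5.12% higher, against 34.8% of the member probes. Arrays of both groups were fully separated, with BRAFV600E below, at 3 of the 23 tested member probes, against 2.38% of all tested probes. With BRAFV600E above they were separated at 0 of the 23, against 4.03%. The 3 were Ascl2 probe 1, Tnfrsf19 probe 2 and Axin2 probe 2, and Axin2 probe 2 was bright enough to test only through the Cre control arrays. The median log2 difference was −0.46 over the 23 member probes and −0.01 over all probes. Of the 8 called probes, Lgr5 probe 2 and Axin2 probe 2 were well above background on all Cre control arrays but on few BRAFV600E arrays (2 and 3 of 6), so that the control group alone carried them through the filter of 6 of 12 arrays. Among the 15 member probes well above background on all 12 arrays, fitted with the 29775 such probes, 6 were called, all lower, of 4014 in all. They were Ascl2 probe 1, Tnfrsf19 probes 1 and 2, Rgmb probe 2, Axin2 probe 1 and Lgr5 probe 1.

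In MEKi against Vehicle, 24 of the 26 probes were tested and 2 were called, Ascl2 probe 1 and Lgr5 probe 2, both higher in MEKi. That is 8.33% of the member probes, and over all 39249 tested probes 0.927% were called, 0.52% higher and 0.408% lower. The arrays did not overlap, with MEKi above, at 7 of the 24 tested member probes, against 5.4% of all tested probes. With MEKi below this held at 0 of the 24, against 4.65%. The median log2 difference was 0.37 over the member probes and 0.03 over all probes. Lgr5 probe 2, which is among the 7 separated probes, passed the filter of 4 of 8 arrays through the MEKi group alone. Among the 17 member probes well above background on all 8 arrays, fitted with the 31489 such probes, 2 were called, of 456 called in all. They were Ascl2 probe 1 (limma adjusted p = 0.0313) and Rgmb probe 2 (adjusted p = 0.0321). With the first filter, neither the call at Ascl2 probe 1 nor that at Lgr5 probe 2 was kept when any of the 8 arrays was left out, with adjusted p-values from limma of 0.0683 to 0.145 for Ascl2 and 0.0505 to 0.129 for Lgr5. Both comparisons were fitted on their own arrays and have no control arrays in common.

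**Figure D1:**
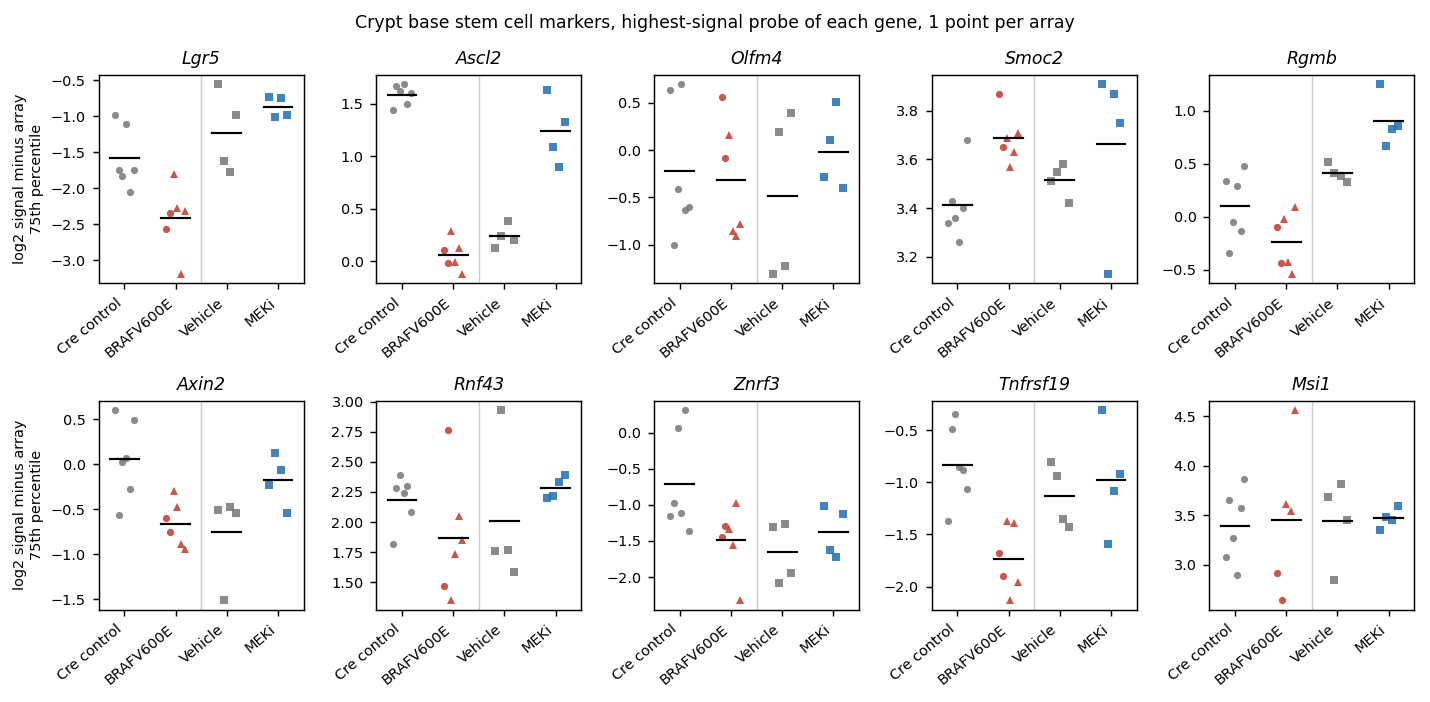
Level of the highest-signal probe of each gene on every array, in log2 signal minus the 75th percentile of the array, with the group mean as a line (circles, slide 1; triangles, slide 2; squares, slide 3). Ascl2 separated both pairs of groups, from 1.44 to 1.69 in Cre control against −0.12 to 0.29 in BRAFV600E and from 0.13 to 0.38 in Vehicle against 0.90 to 1.63 in MEKi. Rgmb separated MEKi from Vehicle only, and every other gene overlapped in both pairs.

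The array sets differed in ways that bear on these values. Of the spots that are not controls, 60.8 to 76.8% were well above background and 0 were saturated on the 20 arrays, and the 75th percentile of signal lay between 524.7 and 1518.1. All 6 Cre control arrays were on slide 1 together with BRAFV600E replicates 1 and 2, whereas BRAFV600E replicates 3 to 6 were on slide 2, where the slope of the spike-in RNA was 0. Within slide 1, with 2 BRAFV600E arrays, 2 member probes were called, Ascl2 probe 1 and Tnfrsf19 probe 2. With slide as a block the same 2 were called. Slide 2 held BRAFV600E arrays only, so the block fit takes its difference from the slide 1 arrays and is no second check. For BRAFV600E replicates 3 to 6, slide and genotype cannot be told apart. Slide 3 carried the MEKi arrays in its row 1 and Vehicle in its row 2, so that row and group cannot be told apart. Y-linked transcripts were high on all 4 MEKi arrays and on Vehicle replicates 1 and 3 only, on Cre control replicates 1 to 3 and on BRAFV600E replicates 1, 2, 3 and 6. Vehicle replicate 2 stood apart in exocrine pancreas genes, with a mean level of 7.50 over 8 tested genes against −3.49 to −3.03 on the other 7 arrays of that comparison. Braf itself, whose probe does not distinguish the mutant allele, gave a log2 difference of 0.42 (SE 0.20, limma adjusted p = 0.198) in BRAFV600E against Cre control, with overlapping groups.

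Ascl2 had the lowest adjusted p of the 10 genes in BRAFV600E. Its probe 1 (chr7:150152734-150152793, mm9, transcript NM_008554) read 1.44 at the lowest, 1.61 at the median and 1.69 at the highest in Cre control. In BRAFV600E the lowest, median and highest were −0.12, 0.05 and 0.29. All 6 mutant arrays lay below all 6 controls, a log2 difference of −1.52 (SE 0.12, 95% interval −1.78 to −1.27), or 34.8% of the control level (limma adjusted p = 3.35e-05). Within slide 1 the difference was −1.54 (adjusted p = 0.00549), and over the 12 fits without 1 array it ran from −1.57 to −1.49 and was called in each. In the inhibitor set, Vehicle replicates 1 to 4 read 0.13, 0.24, 0.38 and 0.20, and MEKi replicates 1 to 4 read 1.63, 1.09, 0.90 and 1.33. Every MEKi array lay above every Vehicle array, by 1.00 on average (SE 0.18, interval 0.59 to 1.41, adjusted p = 0.0484). With Y-linked signal in the model as a covariate that difference was 0.99 with an adjusted p of 0.198, and without Vehicle replicate 2 it was 1.00 with an adjusted p of 0.0868.

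Ascl2 probe 2 was not called in either comparison. It lies 23.9 kb from probe 1 in the same orientation (chr7:150176638-150176697, mm9) and is assigned to a predicted transcript. It was well above background on 4 of 6 Cre control, 6 of 6 BRAFV600E, 2 of 4 MEKi and 3 of 4 Vehicle arrays. In BRAFV600E against Cre control its log2 difference was 0.23 (interval −0.79 to 1.24, adjusted p = 0.80), and in MEKi against Vehicle −0.65 (interval −1.75 to 0.44, adjusted p = 0.638). The groups overlapped in both. The change at probe 2 less the change at probe 1, computed on each array, was 1.75 in BRAFV600E against Cre control (exact permutation test, two-sided p = 0.0108, adjusted over 13 probe pairs p = 0.0985). In MEKi against Vehicle it was −1.65 with an exact p of 0.0286, the smallest that 4 arrays against 4 allow (adjusted over 14 pairs p = 0.20).

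Tnfrsf19 was called at both of its measurable probes in BRAFV600E. Probe 2 (chr14:61582948-61583007, mm9, NM_013869) read −1.59, −1.37 and −1.04 at the lowest, median and highest in Cre control, and −3.50, −3.15 and −2.58 in BRAFV600E. The groups did not overlap, and the difference of −1.78 (SE 0.18, interval −2.16 to −1.39, limma adjusted p = 1.41e-04) was 29.2% of the control level, the lowest share among the member probes. It was −1.99 within slide 1 (adjusted p = 0.00436). Probe 1, 32.5 kb away in the same transcript (chr14:61615452-61615511), gave −0.90 (SE 0.20, adjusted p = 0.0175), with 5 of the 6 BRAFV600E arrays below every control, and −0.96 within slide 1 (adjusted p = 0.133). The change at probe 2 less that at probe 1 was −0.87 (exact permutation p = 0.0152, adjusted over 13 pairs p = 0.0985).

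Under MEKi, Tnfrsf19 probe 2 read −0.91, −2.08, −1.43 and −1.81 on replicates 1 to 4, all above the Vehicle values of −2.49, −2.76, −3.08 and −2.94. Its difference of 1.26 (SE 0.26, interval 0.66 to 1.86) missed the threshold (adjusted p = 0.0806). Probe 1 gave 0.16 (interval −0.48 to 0.80, adjusted p = 0.877) with overlapping groups, and the exact permutation p of the probe difference was 0.0286, or 0.20 adjusted over 14 pairs. Probe 3 lies in the opposite orientation and was well above background on 1 of the 20 arrays, so it was not tested.

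The receptor Lgr5 had 1 bright probe, not called in either comparison, and a dim probe 2 that was called in both. Probe 2 (chr10:114899782-114899841, mm9) read −4.26, −3.53 and −3.08 at the lowest, median and highest in Cre control and −5.65, −4.97 and −4.15 in BRAFV600E, where it was well above background on 2 of 6 arrays, so that the lower values lie near background and the probe was tested only because the controls were bright enough. Its difference was −1.32 (SE 0.25, interval −1.85 to −0.79, limma adjusted p = 0.00722), with 5 of 6 BRAFV600E arrays below every control. Probe 1, 12.4 kb away (chr10:114887403-114887462, NM_010195) and well above background on all 20 arrays, read −2.05, −1.75 and −0.98 in Cre control and −3.19, −2.33 and −1.80 in BRAFV600E. It gave −0.84 (SE 0.25, interval −1.37 to −0.31, adjusted p = 0.051), just outside the threshold, with adjusted p-values of 0.0479 when 1 probe stood for each gene and 0.0361 over the probes well above background on every array. Within slide 1 the differences were −0.88 at probe 1 and −1.31 at probe 2, neither called (adjusted p = 0.182 and 0.0684).

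In the inhibitor set, Lgr5 probe 2 read −3.38, −3.40, −3.61 and −3.65 on MEKi replicates 1 to 4 and −4.86, −4.46, −4.68 and −4.28 on Vehicle replicates 1 to 4, with 2 of the 4 Vehicle arrays well above background against 4 of 4 in MEKi. MEKi was higher by 1.06 (SE 0.16, interval 0.69 to 1.44, limma adjusted p = 0.0318) and the groups did not overlap. Probe 1 gave 0.36 (interval −0.26 to 0.99, adjusted p = 0.648). There the MEKi arrays spanned −1.01 to −0.73 and the Vehicle arrays −1.77 to −0.55. With Y-linked signal in the model probe 2 gave 1.27 with an adjusted p of 0.0695.

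**Figure D2:**
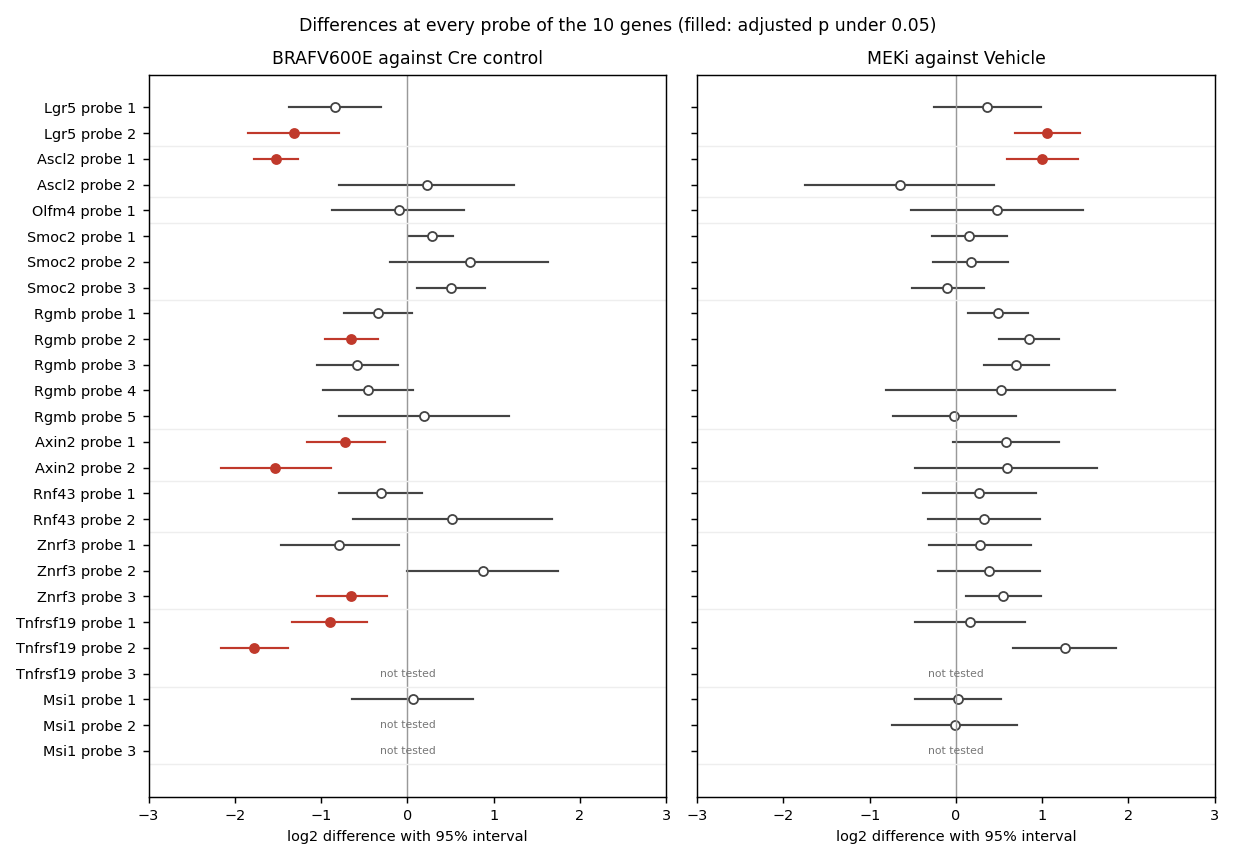
Log2 difference with its 95% interval from limma at each tested probe, left BRAFV600E minus Cre control (23 probes) and right MEKi minus Vehicle (24 probes), with the others of the 26 marked as not tested, filled red where the adjusted p was under 0.05. All 8 called probes on the left lie below 0 and both called probes on the right above 0, with intervals at Ascl2 probe 2 and Rnf43 probe 2 that span 0 on both sides.

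Axin2, the Wnt feedback scaffold, was called at both probes in BRAFV600E, at the brighter one close to the threshold. Probe 2 (chr11:108803927-108803986, mm9) read −3.55, −3.06 and −2.58 at the lowest, median and highest in Cre control and −5.73, −4.58 and −3.82 in BRAFV600E, where it was well above background on 3 of 6 arrays, so that the lower values lie near background and the control group alone carried it through the filter. The groups did not overlap, with a fitted difference of −1.53 (SE 0.29, interval −2.16 to −0.89, limma adjusted p = 0.00869). Probe 1, 8.05 kb away in the same transcript (chr11:108811980-108812039), gave −0.72 (SE 0.21, interval −1.17 to −0.26, adjusted p = 0.0493), called in only 1 of the 12 fits without 1 array, and was well above background on every array. Within slide 1 the values were −0.73 and −1.21 at probes 1 and 2, neither called (adjusted p = 0.249 and 0.0831).

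Under MEKi the Axin2 differences were 0.58 at probe 1 (interval −0.03 to 1.19, limma adjusted p = 0.404) and 0.59 at probe 2 (interval −0.47 to 1.64, adjusted p = 0.666). At probe 1 MEKi replicates 1 to 4 read −0.23, 0.13, −0.06 and −0.54, and Vehicle replicates 1 to 4 read −0.51, −1.51, −0.47 and −0.54. Vehicle replicate 2, the array with pancreatic signal, was the lowest, and without it the difference at probe 1 was 0.33 (adjusted p = 0.515).

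The ubiquitin ligases each had probes on both sides of 0 in BRAFV600E, and no difference between their probes passed adjustment. Znrf3 probe 3 (chr11:5180904-5180963, mm9) read −4.13, −3.79 and −3.35 at the lowest, median and highest in Cre control and −4.93, −4.32 and −4.03 in BRAFV600E, a difference of −0.65 (SE 0.19, limma adjusted p = 0.0496) that was called in 2 of the 12 fits without 1 array. Probe 1 gave −0.79 (interval −1.47 to −0.10, adjusted p = 0.132) and probe 2 (chr11:5176747-5176806) gave 0.87 (interval −0.0036 to 1.75, adjusted p = 0.184). The listed position of probe 1 (chr11:5176332-5176337) covers only a few bases, so its distance from probe 2 is not given. In the transcript assigned to both, probe 1 starts at base 4024 and probe 2 at base 6724. The change at probe 2 less that at probe 1 was 1.66 (exact permutation p = 0.0433, adjusted over 13 pairs p = 0.141). Rnf43 gave −0.31 at probe 1 (chr11:87548944-87549003, interval −0.79 to 0.17, limma adjusted p = 0.387) and 0.52 at probe 2 (chr11:87543959-87544018, interval −0.63 to 1.68, adjusted p = 0.568), both with overlapping groups. For Rnf43 the change at probe 2 less that at probe 1 was 0.83 (exact permutation p = 0.0974, adjusted over 13 pairs p = 0.253).

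In MEKi against Vehicle the 5 probes of Znrf3 and Rnf43 gave log2 differences between 0.27 and 0.55, none called. Znrf3 probe 3 separated the groups, at −3.29, −3.74, −3.56 and −3.64 in MEKi and −3.85, −4.55, −4.01 and −4.02 in Vehicle (difference 0.55, SE 0.19, limma adjusted p = 0.256). At Rnf43 probe 1 MEKi spanned 2.20 to 2.39, and Vehicle 1.58 to 1.77 but for replicate 2 at 2.93. Without that array the Rnf43 difference was 0.58 in place of 0.27 (adjusted p = 0.131 and 0.766).

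Rgmb was measured by 5 probes on chromosome 17. In BRAFV600E, probe 2 (chr17:15940184-15940243, mm9) was called, with −2.41, −2.12 and −1.86 at the lowest, median and highest in Cre control, −3.07, −2.81 and −2.41 in BRAFV600E and a difference of −0.65 (SE 0.14, interval −0.96 to −0.34, limma adjusted p = 0.0169). Probes 1, 3 and 4 gave −0.34, −0.58 and −0.46 without being called (adjusted p = 0.243, 0.108 and 0.232), and probe 5, well above background on 3 of 6 arrays in either group, gave 0.19 (adjusted p = 0.825). Within slide 1 probe 2 gave −0.50 (adjusted p = 0.252). In the inhibitor set probes 1, 2 and 3 each separated the groups without being called, with differences of 0.49, 0.85 and 0.70 (adjusted p = 0.222, 0.0509 and 0.11). At probe 2 MEKi replicates 1 to 4 read −2.25, −2.55, −2.47 and −2.28 and Vehicle replicates −3.34, −3.06, −3.06 and −3.48. Probes 4 and 5 gave 0.52 and −0.02 with overlapping groups (adjusted p = 0.781 and 0.989).

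**Figure D3:**
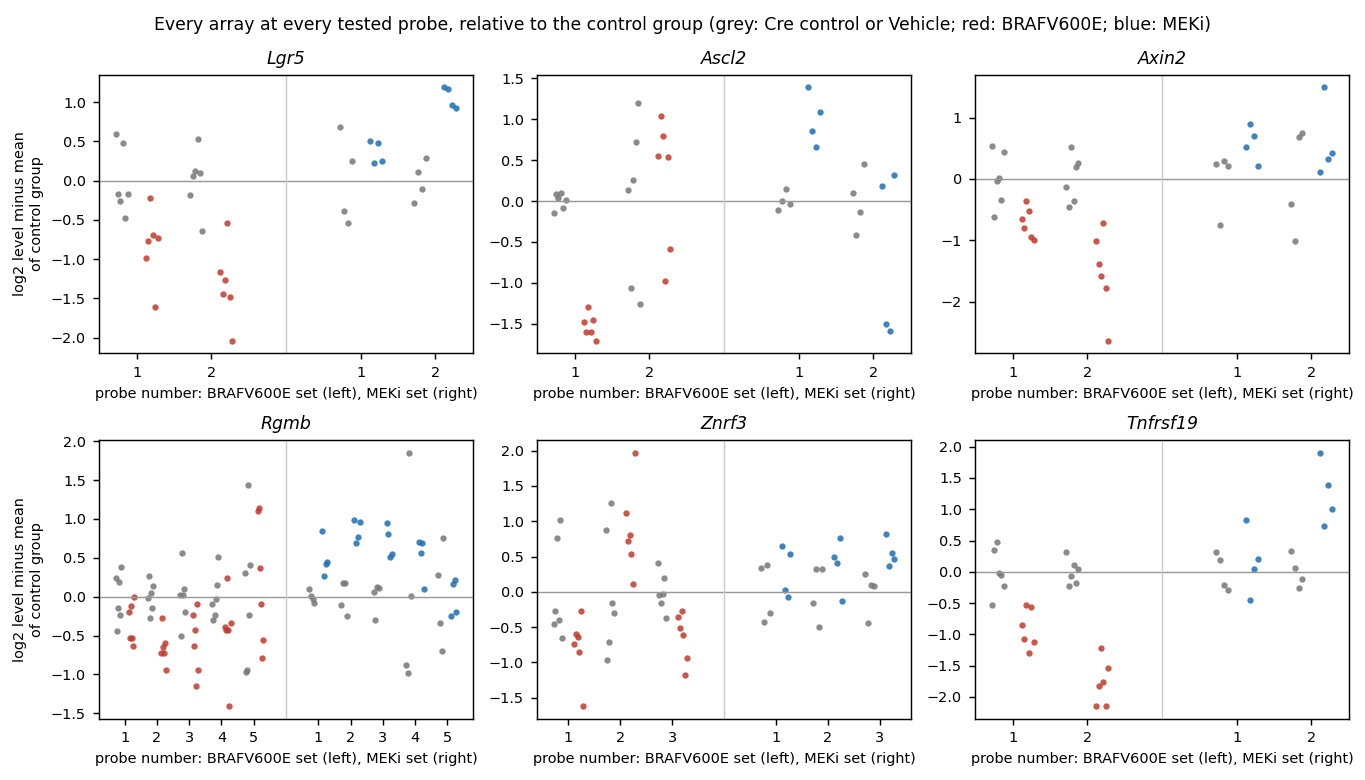
Level on every array at each tested probe of 6 genes, in log2 units relative to the mean of the control group (grey, Cre control or Vehicle; red, BRAFV600E; blue, MEKi). At Ascl2 probe 1 the red points lie together near −1.5 and at probe 2 they spread on both sides of 0, and at Tnfrsf19 the displacement is larger at probe 2 (−1.78) than at probe 1 (−0.90).

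The 2 secreted markers were not called in either comparison. Olfm4 (chr14:80421539-80421598, mm9, 1 probe) read −1.0, −0.50 and 0.70 at the lowest, median and highest in Cre control and −0.91, −0.43 and 0.56 in BRAFV600E, a difference of −0.10 (SE 0.35, interval −0.87 to 0.66, limma adjusted p = 0.885). Its MEKi values of −0.28, 0.11, 0.51 and −0.40 overlapped the Vehicle values of −1.31, 0.19, −1.23 and 0.39 (difference 0.47, interval −0.52 to 1.47, adjusted p = 0.723). A difference as large as that of Axin2 probe 1 (−0.72) lies inside the interval for BRAFV600E, and within slide 1 the fitted value was 0.46. The 3 probes of Smoc2 gave 0.28, 0.72 and 0.51 in BRAFV600E (adjusted p = 0.152, 0.297 and 0.0953). Smoc2 probe 1 (chr17:14541664-14541723) read 3.26, 3.38 and 3.68 at the lowest, median and highest in Cre control and 3.57, 3.67 and 3.87 in BRAFV600E, and its 95% interval was 0.02 to 0.53. Under MEKi the Smoc2 values were 0.15, 0.17 and −0.10, with adjusted p-values of 0.787 to 0.887.

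Msi1 had 1 bright probe (chr5:115904030-115904089, mm9). Its spot on 1 BRAFV600E array was marked as an outlier and left out. It read 2.89, 3.42 and 3.87 at the lowest, median and highest in Cre control and 2.64, 3.54 and 4.56 in the 5 remaining BRAFV600E arrays, a difference of 0.06 (SE 0.32, interval −0.64 to 0.76, limma adjusted p = 0.927). Under MEKi it gave 0.02 (interval −0.47 to 0.52, adjusted p = 0.978). Probe 2 was well above background on 8 of the 20 arrays and was tested only in the inhibitor set (−0.01, adjusted p = 0.991), and probe 3 on 1 of the 20 and was not tested.

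By the highest-signal probe of each gene, 8 of the 10 differences were below 0 in BRAFV600E, 3 of them called, and all 10 were above 0 in MEKi, 1 of them called. Their medians were −0.53 and 0.32, against −0.01 and 0.03 over all probes. Some of the MEKi differences were small, down to 0.02 at Msi1. When every gene was fitted with 1 probe, 2723 of 26122 were called in BRAFV600E, 4 of them members. In MEKi 294 of 26405 were called, 1 of them a member. The mean level over the 10 genes lay between 0.12 and 0.25 on the BRAFV600E arrays other than replicate 3. It lay between 0.59 and 0.81 on the Cre control arrays. It lay between 0.66 and 0.98 on the MEKi arrays and between 0.38 and 0.51 on the Vehicle arrays. BRAFV600E replicate 3 read 0.07, but its Msi1 spot was left out. Msi1 averaged 3.45 on the other BRAFV600E arrays, so that the value of 0.07 is not comparable with the rest. Among the genes with several tested probes, 4 of 8 in BRAFV600E and 4 of 9 in MEKi had probes on both sides of 0. In 0 of the 27 probe pairs did the difference between probes pass after adjustment over the pairs of its comparison.

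Other crypt base and Wnt genes were counted from fixed lists, 1 probe a gene. Of 15 other crypt base genes, 3 were lower in BRAFV600E and 0 higher, namely the potassium channel gene Kcnq1 (−0.80, SE 0.17, limma adjusted p = 0.0123), the cell cycle kinase gene Cdk6 (−0.75, SE 0.15, adjusted p = 0.0105) and the LDL receptor-related gene Lrp4 (−0.70, SE 0.17, adjusted p = 0.0269). The list had a median of −0.39, with 10 differences below 0 and 5 above. Its mean level on the arrays overlapped, at 0.55 to 0.95 in BRAFV600E and 0.79 to 1.05 in Cre control. Under MEKi 1 of the 15 was higher, Rnf32 (1.05, adjusted p = 0.0307), and 1 lower, Cd44 (−0.91, adjusted p = 0.0477), a cell surface receptor for hyaluronan, with a median of 0.12. Of 8 reserve and regenerative stem cell genes 1 was called in BRAFV600E, the keratin gene Krt19, which was higher by 0.94 (SE 0.13, adjusted p = 0.00154), and 0 under MEKi. The median of these 8 genes was −0.12 and 0.14.

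Of the R-spondin and Wnt receptor pathway, 34 of 35 genes were tested in BRAFV600E, with 3 lower, 1 higher and a median of −0.15. The Wnt ligand gene Wnt3, which Paneth cells express, gave −1.95 (SE 0.28, limma adjusted p = 0.00166), the R-spondin gene Rspo3 gave −0.90 (adjusted p = 0.0129), and the co-repressor gene Tle3 −0.80 (adjusted p = 0.0139). Ctnnb1, which encodes β-catenin, was higher by 0.82 (adjusted p = 0.034). Lgr4, the R-spondin receptor related to Lgr5, gave a difference of −0.0041 (interval −0.47 to 0.46, adjusted p = 0.994) in BRAFV600E and 0.71 (interval 0.21 to 1.21, adjusted p = 0.215) under MEKi. Under MEKi 0 of 33 were called, with Wnt3 at 1.13 (interval 0.23 to 2.04, adjusted p = 0.266) and Rspo1 at 1.56 (interval −0.96 to 4.09, adjusted p = 0.623). Of 14 tested Wnt feedback and target genes outside the 10, Sfrp5, a secreted Wnt antagonist, was the single call in both comparisons. Sfrp5 ranged from −1.36 to −0.17 in Cre control and from −3.49 to −2.83 in BRAFV600E (difference −2.51, SE 0.21, adjusted p = 3.96e-05), and was higher by 2.32 under MEKi (SE 0.41, adjusted p = 0.0472). The medians of that list were −0.23 and 0.33. These counts stand beside the 9.33% and 0.927% of all probes called.

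Genes driven by MAPK signalling moved in the direction opposite to the called stem cell markers. Of 12 such genes 9 were higher in BRAFV600E, led by the ETS factor gene Etv4 (2.50, SE 0.27, limma adjusted p = 2.67e-04) and the feedback inhibitor gene Spry4 (2.19, adjusted p = 8.27e-04), and 0 were lower. The ERK phosphatase gene Dusp6 was higher by 0.72 in BRAFV600E (adjusted p = 0.00855) and gave −1.50 under MEKi (adjusted p = 0.0723), with separate groups both times. Under MEKi 6 were lower and 0 higher, with Etv4 at −2.95 (adjusted p = 0.00433) and Etv5 at −2.57 (adjusted p = 0.0021). Of 18 proliferation genes 5 were higher in BRAFV600E, among them Cdk1 (1.15, adjusted p = 0.026), and 0 were called under MEKi. Mki67, which marks dividing cells, gave 0.49 in BRAFV600E (interval 0.12 to 0.86, adjusted p = 0.0877).

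**Figure D4:**
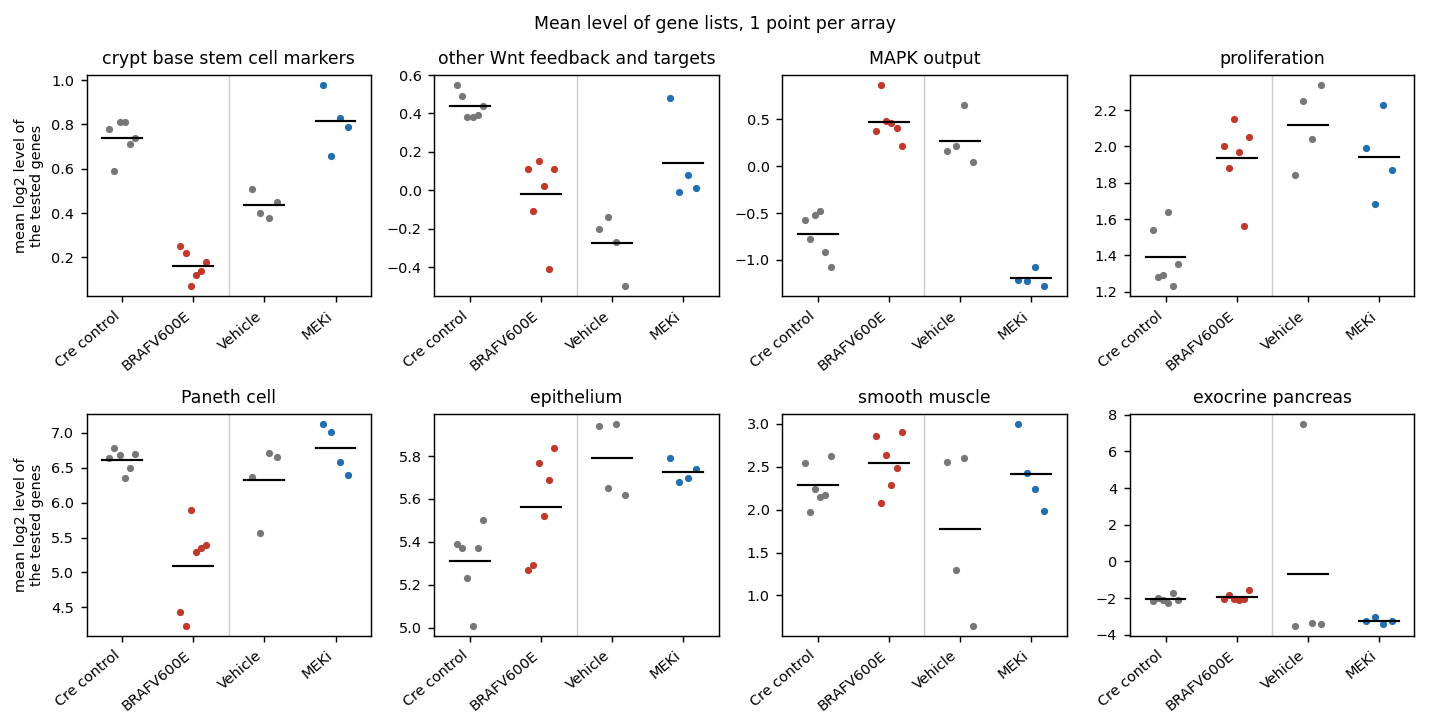
Mean log2 level of the tested genes of 8 lists on every array, with the group mean as a line. The crypt base markers lie lower in BRAFV600E (0.07 to 0.25) than in Cre control (0.59 to 0.81) and higher in MEKi (0.66 to 0.98) than in Vehicle (0.38 to 0.51), and 1 Vehicle array stands at 7.50 in exocrine pancreas genes. The BRAFV600E point at 0.07 (replicate 3) is a mean without the bright Msi1 probe, whose spot was left out, and the other BRAFV600E points lie at 0.12 to 0.25.

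Markers of other cells in the tissue moved with some of these groups. Paneth cell genes, whose cells neighbour the stem cells, were lower in BRAFV600E at 6 of 8 tested genes and higher at 0, with a mean level of 4.24 to 5.90 against 6.36 to 6.79 in Cre control, and Lyz1 gave −2.01 (SE 0.32, limma adjusted p = 0.00295). Under MEKi 0 of 8 were called, and levels ran from 6.40 to 7.13 against 5.56 to 6.72 in Vehicle. Enteric neuron and glia genes were called lower at 2 of 10 (−2.75 to −2.34 against −2.19 to −1.69) and immune genes at 2 of 10 (−0.41 to 0.62 against 0.20 to 0.75). With or without a call, all 10 neuron and glia differences lay below 0, with a median of −0.62 and array ranges that did not overlap. For immune genes 9 lay below 0 and 1 above, with a median of −0.42. Smooth muscle genes were higher in BRAFV600E at 2 of 10 (2.08 to 2.91 against 1.97 to 2.63), exocrine pancreas genes at 1 of 6 (−2.10 to −1.54 against −2.28 to −1.73), and fibroblast genes at 0 of 10 (2.13 to 2.92 against 1.74 to 3.12). The array ranges of smooth muscle, pancreas and fibroblast genes overlapped. Over all probes tested in that comparison, 5.12% were called higher and 4.21% lower. The epithelium list had 2 of 10 genes higher and 0 lower in BRAFV600E (5.27 to 5.84 against 5.01 to 5.50), with the epithelial actin-binding villin gene Vil1 at −0.05 (interval −0.42 to 0.32) and the adhesion gene Epcam at 0.48 (interval 0.07 to 0.89, limma adjusted p = 0.127). Of 10 enterocyte genes 1 was called higher and 0 lower (5.12 to 7.09 against 6.79 to 7.27). With or without a call, 8 of these 10 differences lay below 0, and the median was −0.42.

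Under MEKi 0 genes of these 7 lists were called in either direction. The ranges for MEKi and Vehicle were 5.68 to 5.79 and 5.62 to 5.95 for epithelium, 6.82 to 7.21 and 6.28 to 7.10 for enterocytes, 1.98 to 3.00 and 0.65 to 2.60 for smooth muscle, and 1.29 to 2.16 and 1.59 to 2.39 for fibroblasts. They were −3.05 to −2.34 and −3.18 to −2.83 for neurons and glia, and −0.28 to 0.76 and −0.64 to −0.06 for immune cells. The part of these other cells in the values of the stem cell markers was not tested.

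The scale of the arrays mattered for the direction of some members. Without any scaling between arrays the median of all probes in BRAFV600E against Cre control was 0.80 rather than −0.01. Ascl2 probe 1 then gave −0.71 (limma adjusted p = 0.0509) and Tnfrsf19 probe 2 −0.97 (adjusted p = 0.0345), whereas the otherwise called Axin2 probe 1, Rgmb probe 2 and Znrf3 probe 3 came out at 0.09, 0.16 and 0.16, all below the shift. Above the shift lay Smoc2 probes 1 to 3 at 1.08, 1.52 and 1.32 and Znrf3 probe 2 at 1.68, each called higher there (adjusted p = 0.0108, 0.0215, 0.00966 and 0.0238). Msi1 at 0.91, Ascl2 probe 2 at 1.03, Rgmb probe 5 at 1.00 and Rnf43 probe 2 at 1.33 lay above it without a call. With levels centred on the epithelium list the median of all probes was −0.27, 9 member probes were called lower, Ascl2 probe 1 gave −1.78 and Lgr5 probe 1 −1.09. Of all probes called in that setting, 10.9% were higher in BRAFV600E. That share was 98.2% in the unscaled setting and 54.9% in the main setting.

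**Figure D5:**
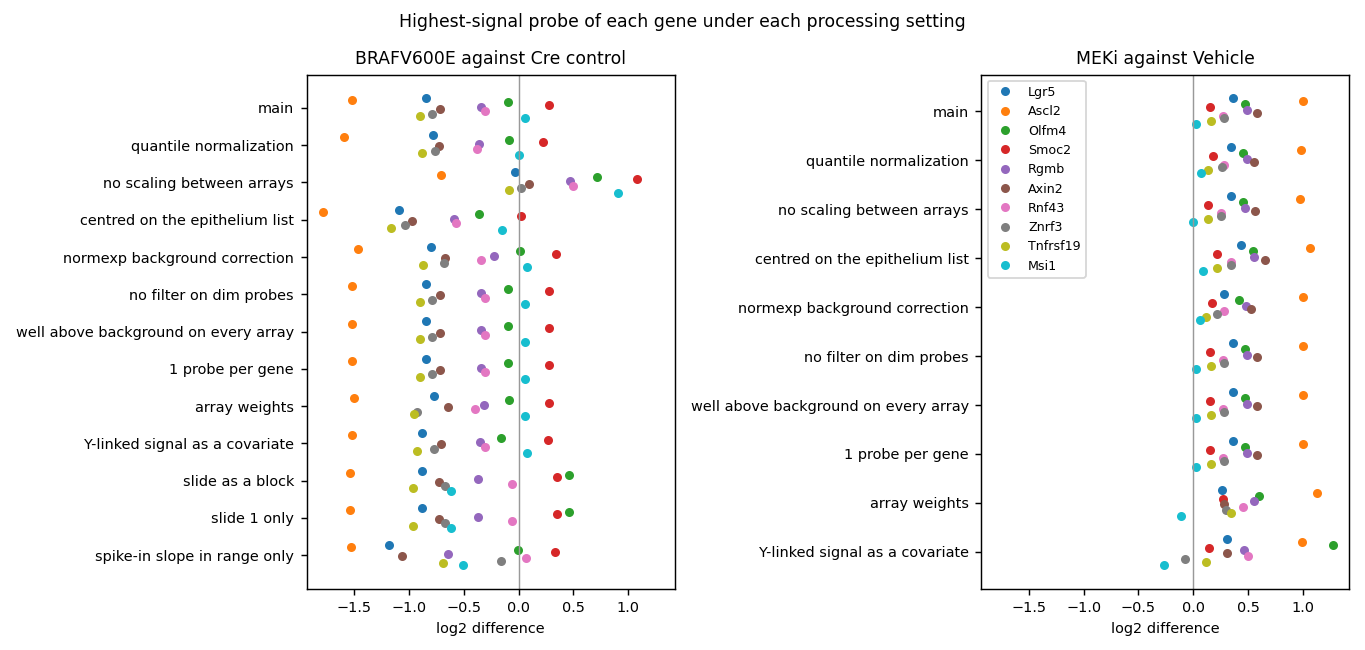
Log2 difference of the highest-signal probe of each gene under each processing setting, left BRAFV600E minus Cre control and right MEKi minus Vehicle. In the left panel Ascl2 is the leftmost point in each setting shown, between −1.78 and −0.71, and the setting without scaling moves all 10 genes to the right.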

How the data were processed

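Per the labels and file headers, the authors hybridised RNA of each mouse to a 1-colour Agilent SurePrint G3 array, and Feature Extraction 10.5.1.1 (version from the submitters' processing notes) read the scans and subtracted background. The deposited intensity is linear and not normalized between arrays, and per the file headers other columns hold 0 or 1 marks per spot. The authors' deposited value table held the same processed intensity and is therefore represented by the setting without scaling. Control spots and outlier spots were left out, and log2 intensity minus the 75th percentile of the array was taken. Probes well above background on at least 6 of 12 or 4 of 8 arrays were fitted per comparison with limma 3.58.1 (R 4.3.3, lmFit and eBayes, no covariate, two-sided, Benjamini-Hochberg adjustment over all tested probes). The fit was tried on simulated data with independent noise and no slide effects, so that trial does not cover the slide differences of these arrays. The study's methods name limma. Other settings changed the normalization, background correction, filter, weights, covariates and arrays used.

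The members and lists were chosen with earlier results of these data known, and the exact permutation tests between probes were added after their values were seen. All 10 genes are named, and from each other list up to 4 called genes with the largest difference, or the largest 2 where 0 were called, besides Vil1, Epcam, Lyz1, Lgr4, Dusp6, Etv4, Mki67 and Braf. Probe positions are those of the files, on mm9, and the exon or intron under each probe was not analysed here. Promoters come from a RefSeq table on GRCm38.p6. The number of arrays limits the precision, and the replicate numbers only name arrays. The treatment text of the labels matches none of the 4 groups and was not used.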

Additional observations from a re-analysis of the deposited data

Results flagged for a closer look

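On 3 of the 96 groups of values examined (4 to 6 arrays at 1 probe), 1 array stood farther from the others than the 95% critical value of Dixon's test allows, and chance gives about 1 in 20. Smoc2 probe 2 read −1.11 on Cre control replicate 6, where the next lowest control was 1.13. Axin2 probe 1 read −1.51 on Vehicle replicate 2, where the next lowest was −0.54. Rnf43 probe 1 read 2.93 on Vehicle replicate 2, where the next highest was 1.77. Vehicle replicate 2 is also the array with a mean level of 7.50 in exocrine pancreas genes, and the part of that signal in the other values was not tested. Without it the MEKi minus Vehicle difference was 0.33 in place of 0.58 for Axin2 probe 1 and 0.58 in place of 0.27 for Rnf43 probe 1, called in neither case. Without Cre control replicate 6 the BRAFV600E minus Cre control difference at Smoc2 probe 2 was 0.29 in place of 0.72.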

How the results depend on the processing

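The 8 called member probes of BRAFV600E against Cre control had 184 values under other settings, of which 131 kept direction and call, 50 kept direction only and 3 reversed, and the 2 of MEKi against Vehicle had 32 values, of which 8 kept direction and call and 24 direction only. In BRAFV600E against Cre control the number of probes called, 3591 in all with 8 members, was 16278 without scaling with 5 members (Tnfrsf19 probe 2 lower, and higher Smoc2 probes 1 to 3 and Znrf3 probe 2, which were not called with scaling), 9253 after normexp background correction, 2390 without a filter on dim probes, 1974 with slide as a block (2 members), 699 within slide 1 (2 members), and 1 on the arrays with a spike-in slope in range (0 members, 2 against 3 arrays). With 1 probe per gene, which leaves 10 member probes, 4 members were called. Without each replicate in turn it ran from 1916 to 5099, with 6 to 8 members. In MEKi against Vehicle the number, 364 with 2 members, was 54 without scaling (0 members), 145 without a filter (0 members), 1348 with array weights (4 members) and 6 with a covariate for Y-linked signal (0 members). The member count was 1 when centred on the epithelium list, after normexp correction and with 1 probe per gene. Without each replicate it ran from 42 to 295, with 0 members, at limma's adjusted p, against 5199 probes at an unadjusted p under 0.05 with all arrays.

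Signs that turned in BRAFV600E were, without scaling, Olfm4 0.71, Rgmb probes 1 to 4 at 0.47, 0.16, 0.23 and 0.34, Axin2 probe 1 0.09, Rnf43 probe 1 0.50, Znrf3 probe 1 0.02 and probe 3 0.16. Centred on the epithelium list, Ascl2 probe 2 gave −0.03, Rgmb probe 5 −0.06 and Msi1 −0.15. After normexp correction, Ascl2 probe 2 gave −0.29, Olfm4 0.01, Rgmb probe 5 −0.44, Rnf43 probe 2 −0.14 and Znrf3 probe 2 −0.01. With slide as a block and within slide 1, Olfm4 gave 0.46 and Msi1 −0.62, and on arrays with a slope in range Rnf43 probe 1 gave 0.07 and Msi1 −0.51. Without each replicate, Olfm4 ran from −0.28 to 0.08, Msi1 from −0.21 to 0.26, Rgmb probe 5 from −0.00032 to 0.48 and Ascl2 probe 2 from −0.02 to 0.47. In MEKi, Msi1 probe 1 gave −0.0014 without scaling, −0.11 with array weights and −0.27 with the covariate. Msi1 probe 2 gave 0.05 centred on the epithelium list, 0.14 with weights and 0.09 with the covariate. Rgmb probe 5 gave 0.05 when centred and 0.21 with the covariate, Smoc2 probe 3 0.03 with weights and 0.19 with the covariate, and Znrf3 probe 1 −0.08 with the covariate. Without each replicate, Rgmb probe 5 ran from −0.25 to 0.24, Tnfrsf19 probe 1 from −0.06 to 0.36, Msi1 probe 1 from −0.18 to 0.14, Msi1 probe 2 from −0.24 to 0.22 and Smoc2 probe 3 from −0.20 to 0.04. The cause was not tested. No paired analysis was possible because the labels give no replicate numbers shared by the groups. Dim probes (Lgr5 probe 2, Axin2 probe 2, Ascl2 probe 2) lay near background, which limits their values.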
